A study of Homo sapiens with 6 samples.

Results

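miR-103a-3p and miR-107 are a pair of mature miRNAs that are cut from introns of the pantothenate kinase genes PANK1, PANK2 and PANK3. They were followed here in whole MIO-M1 cells and in the extracellular vesicles (EV) that these cells release. The members were taken by name, as the 2 rows called hsa-miR-103a-3p and hsa-miR-107 among the 2576 mature miRNAs of the count tables, of which 1188 had a count in any library. MIO-M1, labelled wild type, is an established line of human Müller cells, the radial glia of the retina. The 3 whole cell libraries came from cell pellets at passages 22, 24 and 26 and the 3 EV libraries from conditioned medium at passages 23, 25 and 27, here called replicates 1, 2 and 3 of each group. All cells were grown in DMEM with foetal calf serum, and EV were collected from medium that the labels call serum-free and the methods vesicle-depleted. RNA was taken from cell pellets with the RNeasy kit and from EV with an exosome RNA kit. The methods add vesicle isolation and RNase A before extraction for EV only. Fraction, collection medium, isolation, kit and enzyme thus cannot be told apart. All samples are of 1 cell line, and the spread between replicates is that between its passages.

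Pantothenate kinases catalyse the first and rate-controlling step of coenzyme A synthesis, and the miRNAs in their introns are transcribed with the host. A miRNA guides Argonaute proteins to messages that pair with its seed, the bases at positions 2 to 8. miR-103 and miR-107 are known as regulators of insulin sensitivity, of lipid metabolism and of the processing enzyme Dicer, and miR-103a-3p is also in use as a reference in RT-qPCR of serum and vesicle RNA. Their mature sequences are shown first because the whole comparison rests on how they differ. The seed is in capitals, the reading is 5′ to 3′, and the sequences are those of RefSeq on GRCh38.p14.
miR-103a-3p: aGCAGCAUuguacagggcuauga
miR-107: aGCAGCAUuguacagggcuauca
Both are 23 bases long and share the seed GCAGCAU, which no other of the 2370 mature miRNAs in the RefSeq table carries. They differ by G22C, where positions are counted from 1 at the 5′ end and the base of miR-103a-3p is given first. The first 21 bases are identical, so a read that ends before base 22 fits both miRNAs, and the counts separate them only by what lies at the 3′ end.

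The hairpins from which the mature strands are cut show that the same arm lies in 3 introns. The mature 3p strand is in capitals.
MIR103A1: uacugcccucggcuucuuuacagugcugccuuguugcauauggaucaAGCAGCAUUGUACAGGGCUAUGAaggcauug
MIR103A2: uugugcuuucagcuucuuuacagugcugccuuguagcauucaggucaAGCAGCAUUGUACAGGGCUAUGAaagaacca
MIR107: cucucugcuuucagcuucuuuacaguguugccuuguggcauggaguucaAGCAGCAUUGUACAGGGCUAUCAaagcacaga
In GENCODE 29 (GRCh38) MIR103A1 lies on chromosome 5 from 168560896 to 168560973, minus strand, within PANK3. MIR103A2 lies on chromosome 20 from 3917494 to 3917571, plus strand, within PANK2, and MIR107 on chromosome 10 from 89592747 to 89592827, minus strand, within PANK1. Each hairpin is on the strand of its host and in intron 5 of the host transcript examined, and no spanning transcript has an exon there. The count tables give positions of another build, which their headers do not name. They place the mature miR-103a-3p on chromosome 20 from 3898188 to 3898210 and on chromosome 5 from 167987909 to 167987931, and miR-107 on chromosome 10 from 91352513 to 91352535. The tables thus hold a single count of miR-103a-3p for its loci in PANK2 and PANK3, which cannot be told apart, and how reads that fit more than 1 of the 3 loci were treated is not given. Host messages were not measured in these libraries.

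Whole cell libraries held between 396025 and 3990900 counts of miRNAs, and EV libraries between 1225541 and 3134561. All 7 listed miRNAs that mark Müller glia (miR-9-5p, miR-125b-5p, miR-204-5p, miR-100-5p, miR-99a-5p, let-7a-5p and let-7c-5p) passed the filter on low counts. Only miR-204-5p of these changed in the edgeR test given below, to a lower level in EV, beside 28.6% of all 430 filtered miRNAs. By the Wald test of DESeq2 miR-125b-5p was lower in EV as well (log2 fold change -1.39, adjusted p = 0.0149). Together the 7 took 266588 to 331348 CPM, the count scaled to a library total of 1e6, in whole cells and 150396 to 236202 CPM in EV. The neuronal miR-124-3p had no count in any library.

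miR-103a-3p had 3039, 44233 and 13649 counts in whole cell replicates 1, 2 and 3, which is 7674, 11083 and 10901 CPM. In EV replicates 1, 2 and 3 it had 3085, 12924 and 11519 counts, or 2517, 6340 and 3675 CPM. Every EV library lay below every whole cell library, and the lowest whole cell value, in replicate 1, was nearest to the highest EV value, in replicate 2. On CPM scaled by edgeR's TMM factors the groups of both members were also separate, as were those of 48.4% of the 430 miRNAs tested below, 27.4% with EV lower. The mean was 9886 ± 1918 CPM in whole cells and 4177 ± 1960 CPM in EV (SD, n = 3 for each). Its share of a library was 0.989% ± 0.192 for whole cells and 0.418% ± 0.196 for EV (SD, n = 3; two-sided exact permutation test, p = 0.1, the smallest p that 3 libraries against 3 allow).

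miR-107 was the rarer member throughout. It had 140, 1627 and 435 counts in whole cell replicates 1, 2 and 3, which is 354, 408 and 347 CPM. In EV it had 47, 218 and 292 counts, or 38.4, 106.9 and 93.2 CPM. The groups did not overlap. The highest EV library lay far under the 95% Wilson intervals of the whole cell libraries, which began at 299.6 CPM or above. EV replicate 1, with the fewest counts, had an interval from 28.8 to 51.0 CPM. The mean was 370 ± 33.2 CPM in whole cells and 79.5 ± 36.3 CPM in EV (SD, n = 3 for each), and the share was 0.0370% ± 0.00332 and 0.00795% ± 0.00363 (two-sided exact permutation test, p = 0.1). These intervals cover counting error only. They treat each read as an independent draw, although no step that merges copies of one starting molecule is stated, so they can be too narrow.

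**Figure D1:**
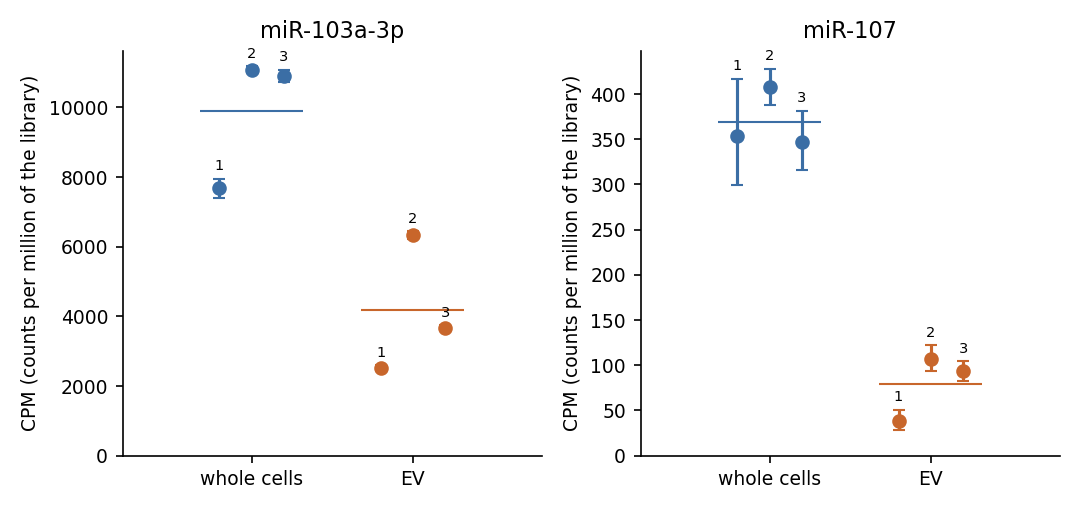
CPM of miR-103a-3p (left) and miR-107 (right) in each library, with the replicate number above each point. Bars are 95% Wilson intervals for counting error and lines are group means; all EV libraries lie below all whole cell libraries, from 2517 to 6340 against 7674 to 11083 CPM for miR-103a-3p and from 38.4 to 106.9 against 347 to 408 CPM for miR-107.

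Both members were among 430 miRNAs that reached 5 CPM in 3 or more of the 6 libraries, and all of these were tested together. In the fit over these miRNAs, with counts scaled by TMM factors, miR-103a-3p was lower in EV by a log2 fold change of -1.33 (SE 0.39, Benjamini-Hochberg adjusted p = 0.0406 in the quasi-likelihood test of edgeR), which is 2.52-fold. miR-107 was lower by a log2 fold change of -2.26 (SE 0.56, adjusted p = 0.0199 from the same edgeR test), which is 4.79-fold. Both fell at an adjusted p below 0.05, as did 14.0% of the 430 miRNAs, while a further 14.7% rose. Neither reached the absolute log2 fold change of 2.5 that the study's methods set. The paper still lists miR-107 among its differentially expressed miRNAs, at -2.46, and does not list miR-103a-3p. That limit was reached by 21.6% of the tested miRNAs at an adjusted p below 0.05 and by 5.81% at one below 0.01. DESeq2's Wald test gave -1.51 for miR-103a-3p (adjusted p = 0.00128) and -2.46 for miR-107 (adjusted p = 2.51e-05), and called 19.8% of the 430 lower in EV and 34.7% changed either way.

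Not every call held when a single library was left out, which also leaves fewer libraries to test. Whether a given library or the smaller number mattered was not tested. With each of the 6 left out in turn, the log2 fold changes ran from -1.70 to -1.20 for miR-103a-3p, with an adjusted p from 0.0242 to 0.155 by edgeR. It passed in 2 of these 6 fits, those without whole cell replicate 1 (0.0242) and without EV replicate 2 (0.0279). It did not pass without whole cell replicate 2 (0.155), whole cell replicate 3 (0.126), EV replicate 1 (0.0823) or EV replicate 3 (0.0866). miR-107 ranged from -2.55 to -2.07 and passed in 4 of the 6, and its adjusted p was 0.137 without whole cell replicate 2 and 0.0758 without whole cell replicate 3. With library totals in place of TMM factors miR-103a-3p had an adjusted p of 0.0628 by edgeR.

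**Figure D2:**
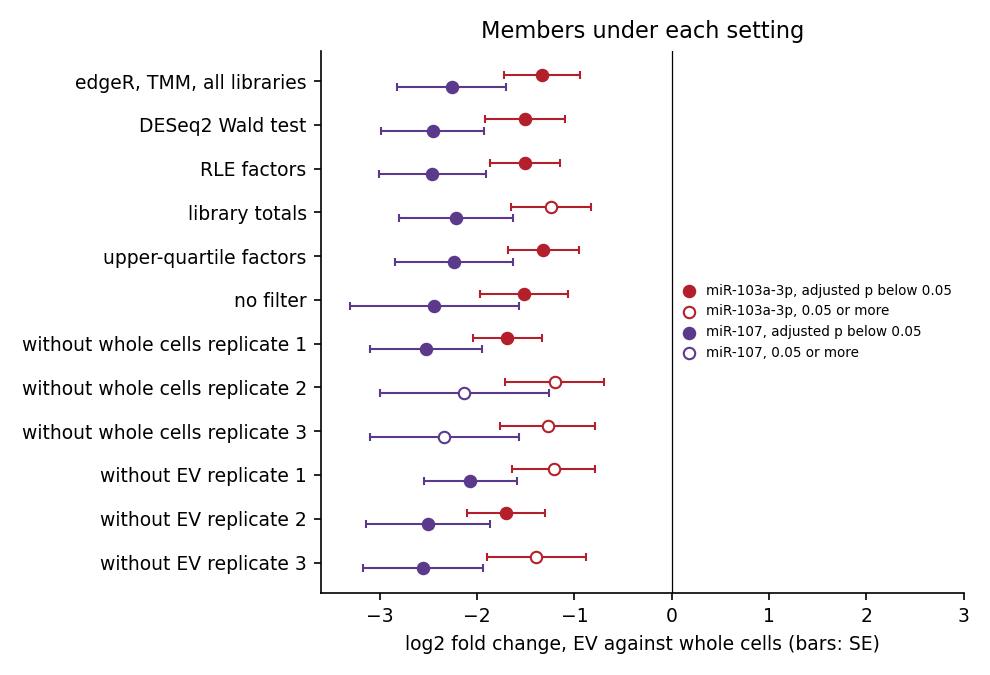
Log2 fold change of both members, EV against whole cells, under each setting, with bars for the SE and filled points for an adjusted p below 0.05. All points lie below 0, from -1.70 to -1.20 for miR-103a-3p and from -2.55 to -2.07 for miR-107, and open points mark the fits in which a member did not pass.

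On the scale of all miRNAs the members took different places. By mean log2(CPM + 4), miR-103a-3p ranked 21 of 430 in whole cells, at 13.25 ± 0.53 (SD, n = 3), and 42 in EV, at 11.93 ± 0.47. miR-107 ranked 109 in whole cells, at 8.54 ± 0.29, and 198 in EV, at 6.27 ± 0.64. The order around them was not sharp, because 17 other miRNAs lay within 1 SD of miR-103a-3p in whole cells and 15 in EV. For miR-107 there were 13 such miRNAs in whole cells and 46 in EV. Of the 3 miRNAs next above and next below miR-103a-3p in whole cells, 4 belong to a list used here, namely miR-9-5p, miR-25-3p, miR-26a-5p and miR-204-5p.

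The ratio of the members needs no scaling between libraries, since both counts come from the same library. Reads that end before base 22 fit both members, and how they were placed is not given. Their part in the ratio was not tested. In whole cell replicates 1, 2 and 3 there were 21.7, 27.2 and 31.4 counts of miR-103a-3p for each count of miR-107. In EV replicates 1, 2 and 3 there were 65.6, 59.3 and 39.4. Every EV library had a higher ratio than every whole cell library. The closest were EV replicate 3, with a counting interval from 35.1 to 44.3, and whole cell replicate 3, from 28.5 to 34.5. The mean log2 ratio was 4.73 ± 0.27 in whole cells and 5.74 ± 0.39 in EV (SD, n = 3), a difference of 1.02 (two-sided exact permutation test, p = 0.1, the smallest that this design allows).

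**Figure D3:**
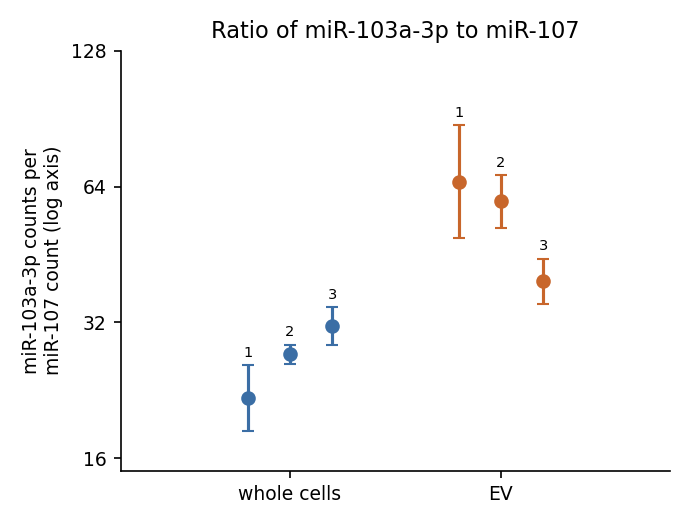
Counts of miR-103a-3p for each count of miR-107 in each library, on a log axis, with 95% Wilson intervals for counting error and the replicate number above each point. The whole cell libraries lie between 21.7 and 31.4 and the EV libraries between 39.4 and 65.6. miR-107 thus has a smaller part of the counts assigned to the pair in EV than in whole cells.

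As a share of the counts of both, miR-107 made up 4.40%, 3.55% and 3.09% of the pair in the whole cell libraries, in order of replicate. In the EV libraries it was 1.501%, 1.66% and 2.47%, so that every EV library was lower. Leaving out any single library kept the difference in log2 ratio between 0.87 and 1.24. Both together made up 1.03% ± 0.193 of a whole cell library and 0.426% ± 0.199 of an EV library (SD, n = 3), nearly all of it miR-103a-3p.

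For comparison, the same ratio was taken for every pair of filtered miRNAs of equal length that differ in 1 base, a rule chosen after the members' values had been seen. It gave 15 pairs, with 0.5 added to each count, and in 6 of them (40.0%) the groups did not overlap. Those were miR-103a-3p with miR-107, miR-29a-3p with miR-29c-3p, miR-19b-3p with miR-19a-3p, let-7a-5p with let-7f-5p, let-7a-5p with let-7c-5p, and miR-27b-3p with miR-27a-3p. In the other 5 of these 6 the rarer member was the one relatively more abundant in EV, with differences in log2 ratio from -2.83 for miR-29a-3p over miR-29c-3p to -0.81 for let-7a-5p over let-7c-5p. For miR-103a-3p over miR-107 the difference was 1.01 on the same scale, with the rarer member relatively less abundant in EV. The mean ratio was also higher in EV for 4 pairs whose groups overlapped, by 0.03 for miR-196a-5p over miR-196b-5p, 0.73 for let-7a-5p over let-7e-5p, 2.16 for miR-181b-5p over miR-181d-5p and 2.62 for miR-135b-5p over miR-135a-5p. The lowest count was 0 for miR-196b-5p and miR-135a-5p and 1 for miR-181d-5p, where the added 0.5 weighs most. The EV ratios of these pairs had an SD of 4.08, 4.34 and 3.16, in that order. miR-19a-3p also had a lowest count of 0. The differing base lay between positions 9 and 20 in the other 14 pairs and at position 22 in miR-103a-3p and miR-107. Pairs that contain let-7a-5p share its counts.

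**Figure D4:**
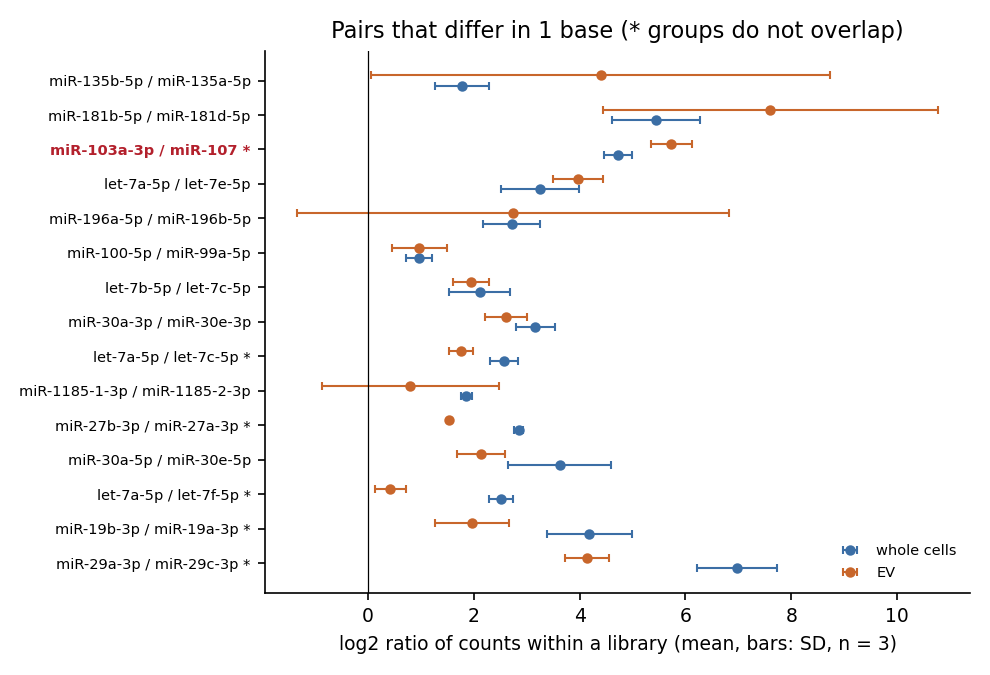
Log2 ratio of the more abundant to the rarer member in the 15 pairs of filtered miRNAs that differ in 1 base, as mean and SD over 3 whole cell and 3 EV libraries; a star marks pairs whose groups do not overlap. The pair of miR-103a-3p and miR-107, in red, moves from 4.72 to 5.74, while the other starred pairs move to lower ratios in EV and 4 pairs without a star have a higher mean in EV.

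The other products of the same loci had few or no counts. miR-103a-2-5p, the opposite arm of the PANK2 hairpin, had 3, 2 and 0 counts in whole cell replicates 1, 2 and 3 and none in EV. A count of 3 was taken as the limit that 0 counts allow, and it stands for 7.58 CPM at the depth of whole cell replicate 1 and for 0.957 CPM at that of EV replicate 3. miR-103b, which is read from the opposite strand of both miR-103a hairpins, had 0 counts in every library. The reads were counted with strand, so the count of miR-103a-3p does not include that strand.

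The seed of miR-103a-3p and miR-107 is a shifted form of that of the miR-15 family, and together they are known as the group of miR-15 and miR-107, whose common stretch is AGCAGC. The stretch starts at base 1 in miR-103a-3p and miR-107 and in no other of the 2370 mature sequences, and at base 2 in 9 of them (0.380%). The members of the group that moved most clearly are shown with the seed in capitals.
miR-15b-5p: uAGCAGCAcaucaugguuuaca
miR-16-5p: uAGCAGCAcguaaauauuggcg
Of 8 further names of the group in the tables, miR-646 had no count and 7 passed the filter. Among these 7, miR-16-5p rose, miR-15b-5p fell and 5 did not pass, with a median log2 fold change of 0.06. Among all 430 miRNAs 14.7% rose and 14.0% fell, or 28.6% in either direction, with a median of -0.23. The group was thus near the share of all miRNAs.

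miR-15b-5p, a cell cycle regulator from an intron of SMC4, had 1933, 15273 and 5132 counts in whole cells and 431, 1217 and 2034 in EV. Its level fell from 4269 ± 547 to 533 ± 159 CPM (SD, n = 3), with a log2 fold change of -3.00 (SE 0.34, adjusted p = 0.00308 by edgeR). miR-16-5p, whose copy at SMC4 lies beside miR-15b, had 15894, 124962 and 33089 counts in whole cells and 103834, 233690 and 358316 in EV. It rose from 32624 ± 6948 to 104556 ± 17175 CPM (SD, n = 3), with a log2 fold change of 1.70 (SE 0.33, adjusted p = 0.0109 by edgeR). Members that carry the same stretch and, in this pair, the same seed thus lay on both sides of 0.

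The other 5 of the group had wider errors. For miR-424-5p the log2 fold change was 2.13 (SE 1.04), and for miR-195-5p 1.33 (SE 0.78). It was 0.06 for miR-15a-5p (SE 0.74), -0.60 for miR-503-5p (SE 0.59) and -1.55 for miR-497-5p (SE 1.60). Their adjusted p by edgeR ran from 0.192 for miR-424-5p to 0.978 for miR-15a-5p, and the libraries overlapped between the groups for all of them except miR-424-5p, which had 12 to 32 counts in whole cells and 50 to 259 in EV.

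**Figure D5:**
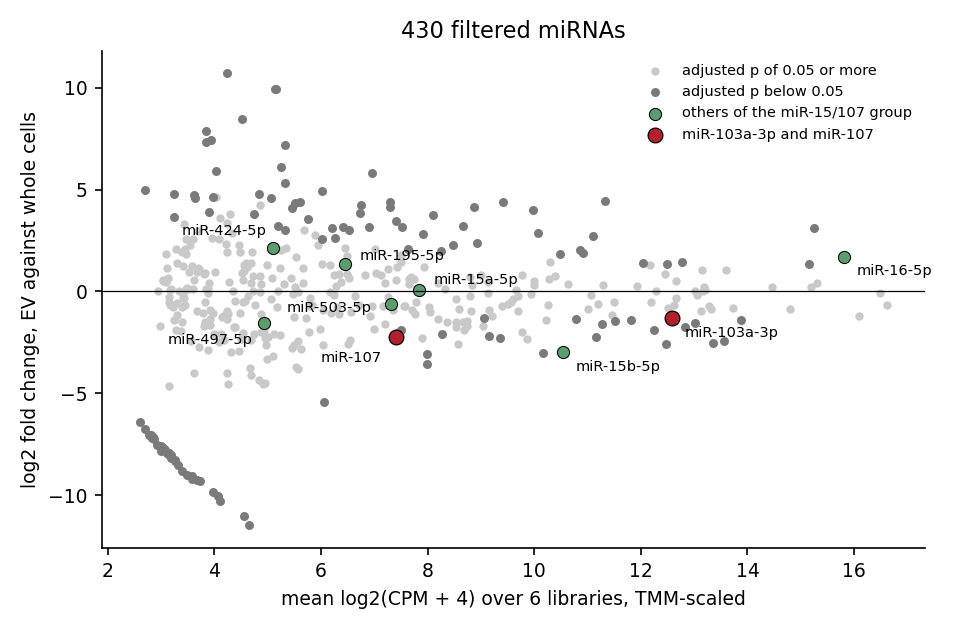
Log2 fold change of the 430 filtered miRNAs, EV against whole cells, over their mean log2(CPM + 4), with miR-103a-3p and miR-107 in red and the 7 others of the group of miR-15 and miR-107 in green. The red points, at -1.33 and -2.26, lie below 0, as miR-15b-5p does at -3.00, while miR-16-5p lies above it at 1.70; the line of points at the lower left holds miRNAs with no count in EV.

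Other miRNAs in introns of protein-coding hosts were found on both sides of 0. The tables list 25 of these names, and of the 23 that passed the filter, 4 rose, 2 fell and 17 did not pass, with a median log2 fold change of 0.03. Among all 430 miRNAs 28.6% were called in either direction, 14.7% higher and 14.0% lower, with a median of -0.23, so that the list was near the share of all miRNAs. The 2 that fell were miR-15b-5p and miR-204-5p (-1.90, adjusted p = 0.00872 by edgeR), the latter from an intron of TRPM3. Those that rose were miR-335-5p from MEST, miR-126-3p from EGFL7, miR-378a-3p from PPARGC1B and miR-151a-3p from PTK2. They ran from 1.34 for miR-151a-3p (adjusted p = 0.0287) to 9.95 for miR-335-5p (adjusted p = 0.00371, both by edgeR), which had 0 to 2 counts in whole cells, so that its fitted value depends on the prior count.

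miRNAs known for roles in lipid and glucose metabolism formed another list. The tables list 13 of these names, and of the 11 that passed the filter, 7 rose, none fell and 4 did not pass the test, with a median log2 fold change of 2.85. They included all 3 listed forms of miR-29, which acts on matrix genes, namely miR-29a-3p, miR-29b-3p and miR-29c-3p. The others were miR-122-5p, the main miRNA of hepatocytes, miR-143-3p, miR-378a-3p and miR-27a-3p. The highest was miR-29c-3p at 4.16 (SE 0.58, adjusted p = 0.00448 by edgeR) and the lowest of the list miR-370-3p at -0.54 (SE 0.70, adjusted p = 0.638 by edgeR). At an adjusted p below 0.05 with edgeR 28.6% of all 430 were called in either direction, 14.7% higher and 14.0% lower, with a median of -0.23. The list was chosen with earlier results of these data known.

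miRNAs in use as references for RT-qPCR, the role in which miR-103a-3p is also known, formed a further list. All 14 passed the filter, 1 rose, 1 fell and 12 did not pass, with a median log2 fold change of -0.36, beside 28.6% called and a median of -0.23 for all 430. miR-16-5p was the one that rose. miR-484, which is made without Drosha, was the one that fell, at -3.07 (SE 0.73, adjusted p = 0.0171 by edgeR). The value nearest to 0 was that of miR-26a-5p at 0.03 (SE 0.35), and miR-103a-3p at -1.33 was lower than 13 of the 14. The SD of log2(CPM + 4) of miR-103a-3p over the EV libraries was 0.47, against a median of 0.63 over the 215 more abundant of the 430. In whole cells it was 0.53, against a median of 0.47 over the 215 more abundant there.

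The miRNAs whose profile was nearest were found by the root mean square difference from each member in centred log2(CPM + 4) over the 6 libraries. The nearest to miR-103a-3p was miR-224-5p at 0.195, followed by miR-92b-3p at 0.279, miR-23c at 0.297, miR-3687 at 0.309 and miR-7974 at 0.354. The last 2 of these had 0 counts in EV and a low level in whole cells, where the pseudocount makes a difference look small. The nearest to miR-107 was miR-92a-3p at 0.283, which belongs with miR-92b-3p to one seed family. It was followed by miR-3173-5p at 0.378, miR-323b-3p at 0.380, miR-770-5p at 0.402 and miR-500a-5p at 0.417, all but miR-323b-3p of these 4 at 0 in EV. miR-107 took place 32 from miR-103a-3p on this measure, at 0.542, and miR-103a-3p was at place 21 from miR-107.

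Markers of other cell types were also counted in the libraries. Of 7 blood miRNAs 3 passed the filter, and their summed level was 164 to 1163 CPM in whole cells and 1549 to 2312 CPM in EV. miR-451a, miR-144-3p and miR-142-5p were at 0 in all whole cell libraries, and none of the 7 was at 0 throughout EV. The blood miRNA miR-486-5p, with 1491, 3489 and 3751 counts in EV, did not pass the test (adjusted p = 0.487 by edgeR). The 2 endothelial forms of miR-126 together had 30.3 to 93.4 CPM in whole cells and 535 to 810 CPM in EV. For 4 miRNAs of neurons and photoreceptors the sum was 227 to 333 CPM in whole cells and 1151 to 1218 CPM in EV. Of these, miR-124-3p had no count. miR-96-5p had 10, 29 and 8 counts in whole cells and 0, 91 and 0 in EV, and its groups overlapped. For 4 of muscle and liver the sum was 13.03 to 15.2 CPM in whole cells and 285 to 427 CPM in EV. Of the last list miR-133b was at 0 in all libraries and miR-206 in all whole cell libraries. The marker miRNAs that passed the test were higher in EV, other than miR-204-5p of the Müller list, while miR-103a-3p and miR-107 were lower, and the part of these RNAs in the members' values was not tested. In RNA pooled from many vesicles, fewer vesicles with a miRNA and fewer copies in each cannot be told apart.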

How the data were processed

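Small RNA libraries were made by the authors with the QIAseq miRNA kit and sequenced on an Illumina instrument. The authors trimmed adapters with Cutadapt and deposited, for each of 6 libraries, the raw count of reads per mature miRNA. Per the file headers, reads were counted over miRBase release 20 by featureCounts 1.5.0-p1, with its strand option at 1, from alignments marked bw1, while the methods name Bowtie2 and release 21. That command sets no option for reads with several alignments, and how the aligner placed reads shared by miR-103a-3p and miR-107 is not given. The genome build and any use of molecular identifiers are not given in the sources used here.

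Groups came from sample labels, and replicates were numbered in accession order and not paired. miRNAs that reached 5 CPM in 3 or more libraries were kept and tested on TMM-scaled counts with edgeR 4.0.16 in R 4.3.3, with DESeq2 1.42.0 as an alternative, and scripts were tested on simulated data. Log2 values used a pseudocount of 4. Total counts set the precision of each value, with Wilson intervals at 95%. Single values were compared by two-sided exact permutation tests. Sequences were taken from RefSeq, in which 2262 of the 2576 names were matched, and hosts from GENCODE 29. Other alternatives covered normalization, filter, denominators and leaving out each library. The members and lists were chosen with earlier results of these data known. Named miRNAs were the members, other products of their loci, the group of miR-15 and miR-107, the 5 nearest profiles of each member, and, of each further list, the members that passed and the extremes. Lists covered intronic, reference and metabolic miRNAs, Müller glia, blood, endothelium, neurons and photoreceptors, and muscle and liver.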

Additional observations from a re-analysis of the deposited data

How the results depend on the processing

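Both members stayed lower in EV under all 11 alternatives each. The log2 fold change of miR-103a-3p was -1.24 with library totals and then did not pass (adjusted p = 0.0628 by edgeR), and over the 6 fits that left out a library it ran from -1.70 to -1.20, passing in 2. That of miR-107 ran from -2.55 to -2.07 over those fits, passing in 4, and passed under each other alternative. RLE factors and DESeq2 moved the median of all 430 miRNAs from -0.23 to -0.41. Relative to the median of its own fit, miR-103a-3p was at -1.10 and miR-107 at -2.03 with TMM factors, and over the other fits to the 430 they ran from -1.24 to -0.71 and from -2.29 to -1.57, both nearest to 0 without EV replicate 1. Without the filter the fit took in all 1188 miRNAs with a count, most of them too low to pass the filter, and the median was -2.41. Relative to that median, which such low counts set, miR-103a-3p was higher, at 0.89, and miR-107 at -0.03. The number called at an adjusted p below 0.05, 123 with edgeR, was 240 without the filter and 74 to 143 with a library left out, 74 without whole cell replicate 2 and 81 without whole cell replicate 3. With a log2 limit of 2.5 it was 93, or 207 without the filter, and 65 to 119 with a library left out. At an adjusted p below 0.01 with that limit it was 25, against 72 with DESeq2, 38 with upper-quartile factors, 45 without the filter and 0 to 31 with a library left out. It was 0 by edgeR without whole cell replicate 3 and without EV replicate 2. With miR-21-5p and miR-16-5p taken out of the total, EV replicate 2 had a share of miR-103a-3p of 0.831%, just above the 0.820% of whole cell replicate 1, so that these values overlapped (p = 0.2, exact permutation test, two-sided), while those of miR-107 did not. With a pseudocount of 1, 3 of the 5 nearest miRNAs of miR-103a-3p and 2 of those of miR-107 were listed again. No pairing was fitted, as the groups share no passage and replicate numbers follow accession order only. EV passages 23 and 25 each lie next to 2 whole cell passages. The depth limits miR-107 most, with 47 counts in EV replicate 1, and the cause of the changes with the setting was not tested.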
